A study of Homo sapiens with 8 samples.

Results

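PANC1 and SW1990 are established lines of human pancreatic cancer, and their untreated (mock) cells were compared here on 3 of the 8 arrays of the series. Every array was a 2-colour Agilent expression array on which the RNA of mock cells, with no transfection, was labelled with Cy3 and the RNA of transfected cells of the same line with Cy5. The 3 arrays were chosen by the line named in their labels: 2 arrays carried PANC1 mock RNA, beside PANC1 cells transfected with miR-130-5p or miR-130-3p, and 1 array carried SW1990 mock RNA, beside SW1990 cells transfected with miR-204-5p. The other 5 arrays held mock cells of PC3 (prostate cancer), SK-MES-1 (lung squamous cell carcinoma) and MDA-MB-231 (breast cancer), and are used below to place the levels. The cells were grown in RPMI 1640 or DMEM, and the labels do not say which line had which medium, so medium and line cannot be told apart.

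SW1990 has 1 mock channel. Nothing in the labels names separate PANC1 cultures, so the 2 PANC1 mock channels count as 1 RNA measured on 2 arrays. Their difference gives the error of a repeated array and not the spread between cultures, so the calls below rest on size alone, and the limma fit in the closing section measures array error. A level is the net Cy3 intensity of a probe on the log2 scale after quantile normalization, and a difference is the PANC1 mean minus SW1990, so that a difference of 1 is 2-fold. A gene was called where each PANC1 array differed from SW1990 by over 2-fold in the same direction. Levels are compared for the same probe only. Where every array of a line failed the test of being well above background, its level is only a limit. Such a level was raised to the lowest one that was well above background on that array, unless it was already higher. The fold is then given as "at least". Some probes failed the test at higher levels, such as ABCA1 at 3.07 in PANC1 and COL5A1 at 2.99 in SW1990. Folds of this kind thus depend on the chosen limit and are not strict minima. The small ones are the most uncertain. Each rests on 1 probe, and other probes of the gene can give a smaller difference.

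Epithelial cells are held together by E-cadherin junctions, tight junctions and desmosomes and carry a keratin skeleton. Mesenchymal cells lack these contacts and make vimentin, N-cadherin and a collagen-rich matrix. ZEB, SNAIL and TWIST factors repress epithelial genes, many of them through the E-box CACCTG, whereas GRHL2, OVOL and ESRP proteins keep the epithelial state. Most pancreatic cancers are ductal adenocarcinomas, and cells of the normal duct express KRT7, KRT19, SOX9 and the chloride channel CFTR. Tumours are often sorted into a classical group, rich in gut-type epithelial and mucin genes, and a basal-like group, rich in squamous keratins.

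The promoters of 3 epithelial genes that were high in SW1990 and not well above background in PANC1 are printed here with any CACCTG marked. They cover 250 bases before to 50 bases after the transcription start, from RefSeq on GRCh38.p14, and capitals mark CACCTG or its reverse complement CAGGTG. Other forms of the E-box were not searched for and are not marked. LAD1 and FXYD3 were among the 5 epithelial genes with the largest difference, and CRB3 was shown for its number of matches, after its values were seen. LAD1 lies at chr1:201399275-201399574 on the minus strand, CRB3 at chr19:6464021-6464320 on the plus strand and FXYD3 at chr19:35117750-35118049 on the plus strand.
LAD1: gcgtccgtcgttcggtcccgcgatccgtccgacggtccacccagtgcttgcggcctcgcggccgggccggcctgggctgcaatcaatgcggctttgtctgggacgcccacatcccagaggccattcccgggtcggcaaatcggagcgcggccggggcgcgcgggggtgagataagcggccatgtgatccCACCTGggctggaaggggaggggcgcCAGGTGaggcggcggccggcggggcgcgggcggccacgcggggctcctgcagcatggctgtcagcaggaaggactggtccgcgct
CRB3: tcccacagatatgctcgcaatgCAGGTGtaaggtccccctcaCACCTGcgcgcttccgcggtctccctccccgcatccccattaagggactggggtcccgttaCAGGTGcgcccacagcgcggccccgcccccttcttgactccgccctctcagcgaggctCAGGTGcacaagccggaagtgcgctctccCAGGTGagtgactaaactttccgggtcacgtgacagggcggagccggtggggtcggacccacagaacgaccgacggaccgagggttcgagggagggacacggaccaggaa
FXYD3: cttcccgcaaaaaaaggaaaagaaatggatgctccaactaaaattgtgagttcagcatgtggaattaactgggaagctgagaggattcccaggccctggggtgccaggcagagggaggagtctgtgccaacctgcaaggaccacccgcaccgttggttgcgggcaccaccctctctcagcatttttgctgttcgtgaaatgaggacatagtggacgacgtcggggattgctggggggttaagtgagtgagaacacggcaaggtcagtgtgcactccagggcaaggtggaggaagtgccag
The LAD1 window held 2 matches, the CRB3 window 5 and the FXYD3 window 0, while 20.6% of the 27305 promoters in the reference held at least 1. Of the 58 epithelial genes examined, 29 had a promoter in the reference, and 13 of these held a match, as did 4 of the 33 kept mesenchymal genes with a promoter. With so many members missing, these counts give no share over either list, and nothing is read from them. CDH1 is among those without an entry. A match is a description of these letters only.

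Each array held 43317 gene names on 58201 probes, of which 41.4% to 46.4% were well above background in the mock channel, with no saturated spot. At least 1 probe of 20523 genes was well above background on both PANC1 arrays or on SW1990. Between the PANC1 arrays the median absolute difference over these genes was 0.08 on the log2 scale, and 369 genes (1.80%) differed by over 2-fold. Among the 16714 genes well above background in both lines, 12 did. Between PANC1 and SW1990, 3610 genes (17.6% of those kept) were over 2-fold higher in PANC1 and 3395 (16.5%) were over 2-fold higher in SW1990. The filter keeps a gene that is bright in 1 line alone, and such a gene tends to differ. Over the genes well above background in both lines, the shares were 14.5% and 11.3%. The median difference over all kept genes was -0.003.

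Over the 19878 probes well above background on all 8 arrays, the SD of the difference was 0.158 between the PANC1 arrays, against 1.11 between either PANC1 array and SW1990. Pearson's r of the levels was 0.998 within PANC1 and 0.901 or 0.902 with SW1990. The points are probes on arrays of 1 slide, so r is given as a description. The values between any pair of different lines ran from 0.901 to 0.932, and the pancreatic pair lay at the low end of this range.

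Epithelial genes were mostly higher in SW1990. All 58 listed genes were well above background in SW1990, against 33 and 35 on the PANC1 arrays. Over 2-fold higher in SW1990 were 44 of the 58, 1 was higher in PANC1 and 13 were not called, where 16.5% and 17.6% of all kept genes were. The median difference was -3.40, or -2.92 with the 23 genes that were not well above background in PANC1 set at their limit. Among the members bright in both lines, 19 of 32 (59.4%) were higher in SW1990 and 1 in PANC1, beside 11.3% and 14.5% of all such genes.

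**Figure D1:**
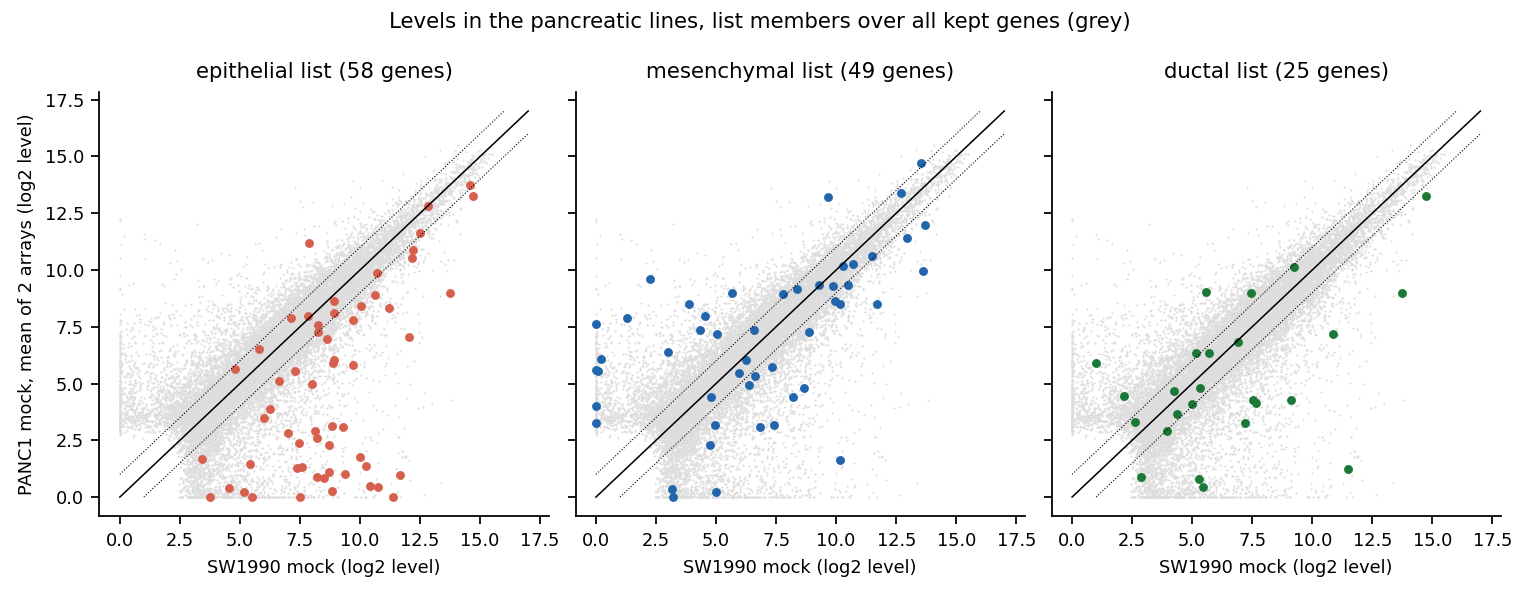
Log2 level of each of the 20523 kept genes in SW1990 (x axis) and PANC1 (y axis, mean of 2 arrays), with list members in colour. The solid line marks equal levels and the dotted lines 2-fold. Most epithelial members lie below the dotted lines, many with PANC1 at or near 0, whereas mesenchymal members lie on both sides.

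CDH1, which encodes E-cadherin, had levels of 1.69 and 1.83 on the PANC1 arrays and 10.01 on the SW1990 array. Its probe (chr16:68869214-68869273, hg19) was well above background in SW1990 and on neither PANC1 array, which puts the gene at least 283-fold higher in SW1990. The probe is spotted repeatedly, and the SD between spots of 1 array was 0.252 in SW1990 and 0.729 and 0.554 in PANC1. PC3 had 5.48 and 5.49, MDA-MB-231 3.46, and SK-MES-1 0.53 and 0.46. SW1990 had the highest level of the 5 lines, and the low values of PANC1 and SK-MES-1 are at background and have no order.

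EPCAM, a surface adhesion protein of epithelia, was measured in both lines. Its levels were 7.02 and 7.04 in PANC1 and 12.05 in SW1990, a 32.4-fold difference. The other lines had levels of 7.71 to 9.10, so SW1990 was the highest of the 5 lines and PANC1 the lowest.

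Most regulators of the epithelial state were higher in SW1990. ESRP1, a splicing factor, had 2.08 and 0.54 in PANC1 and 7.59 in SW1990, at least 49.99-fold higher there. GRHL2, a transcription factor that drives junction genes, had 0 and 0 in PANC1, the lower end of the scale, and 7.49 in SW1990, at least 49.6-fold higher. A second GRHL2 probe was also well above background only in SW1990 among these 3 arrays. It had 2.73 and 1.57 in PANC1 and 4.08 in SW1990, a smaller difference of -1.93. ESRP2, the paralog of ESRP1, was present in both lines, with a difference of -1.91. GRHL1, the paralog of GRHL2, went the other way without being called, with 6.45 and 6.60 in PANC1 and 5.79 in SW1990. The factors OVOL1, EHF, ELF3 and OVOL2 were not well above background in PANC1, with differences of -6.06, -8.56, -7.65 and -5.63. KLF5, at -5.72, was well above background on 1 of the 2 PANC1 arrays.

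Several proteins of the cell surface and of polarity were bright in SW1990 and at background in PANC1. MAL2, which sorts proteins to the apical membrane, had 1.34 and 0.61 in PANC1 and 11.67 in SW1990, at least 897-fold higher. The membrane protease PRSS8 had 0.42 and 0.43 against 10.75, at least 476-fold. LAD1, a protein of the basement membrane zone, had 0.87 and 0.09 against 10.43, at least 381-fold. FXYD3, a regulator of the sodium pump, had 1.31 and 1.44 against 10.25, at least 336-fold. Its other kept probes had smaller differences, at -7.66 and -2.83. In all 4 genes, whose promoters are shown above for LAD1 and FXYD3, the PANC1 arrays were at background. CRB3, a polarity protein, had 0.68 and 1.52 against 8.69, at least 114-fold higher in SW1990.

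Tight junction genes were divided between those called as higher in SW1990 and those under 2-fold. CLDN4 had 11.60 and 11.66 in PANC1 and 12.48 in SW1990, a difference of -0.85 that was not called. CLDN7 had 8.10 and 8.15 against 8.90, a difference of -0.77 that was not called either. Other junction genes below 2-fold were F11R (-0.84), MARVELD2 (-0.68), CLDN3 (0.80) and OCLN (0.86). Another F11R probe passed 2-fold, at -1.46. With the same probes in Cy5, CLDN4 (-1.40), CLDN7 (-1.18) and F11R (-1.42) also passed it, and CLDN3 (0.45) did not. For CLDN4, CLDN7 and F11R, staying under 2-fold thus held in the mock channel alone. MARVELD3, a further tight junction membrane protein, was at 0 on both PANC1 arrays and 5.51 in SW1990, at least 12.6-fold higher there. The scaffold protein TJP3 was at least 6.52-fold higher in SW1990, and CGN (cingulin) and CLDN1 had differences of -2.88 and -1.65. In PANC1, where CDH1 was not well above background, claudins and occludin were thus measured. The desmosome genes DSP (-1.63), JUP (-1.73), PKP3 (-1.66), DSG2 (-2.39) and PKP2 (-6.20) were well above background in both lines and higher in SW1990. DSC2, a desmosomal cadherin, was on neither PANC1 array well above background, with 2.42 and 0.97 against 3.40, and was not called.

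The simple epithelial keratins were bright in both lines. KRT18 had 13.92 and 13.57 in PANC1 and 14.59 in SW1990, and was not called. Its other probe had 12.57 and 12.55 against 13.60, a difference of -1.04. The partner KRT8 had 10.85 and 10.87 against 12.20, 2.53-fold higher in SW1990, and its other probes had differences of -0.62 and -1.11. For both genes, passing 2-fold thus depended on the probe. KRT19 had 13.21 and 13.26 against 14.72, a 2.79-fold difference. KRT7, a keratin of ductal epithelia, differed most, with 8.99 and 8.99 against 13.76, 27.2-fold higher in SW1990. PANC1 had the lowest KRT7, KRT19 and EPCAM of the 5 lines.

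CD24, a surface glycoprotein, was the member higher in PANC1, with 11.20 and 11.17 against 7.89. The array's annotation places its probe on a near-identical copy of the gene on another chromosome, so this value is uncertain.

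**Figure D2:**
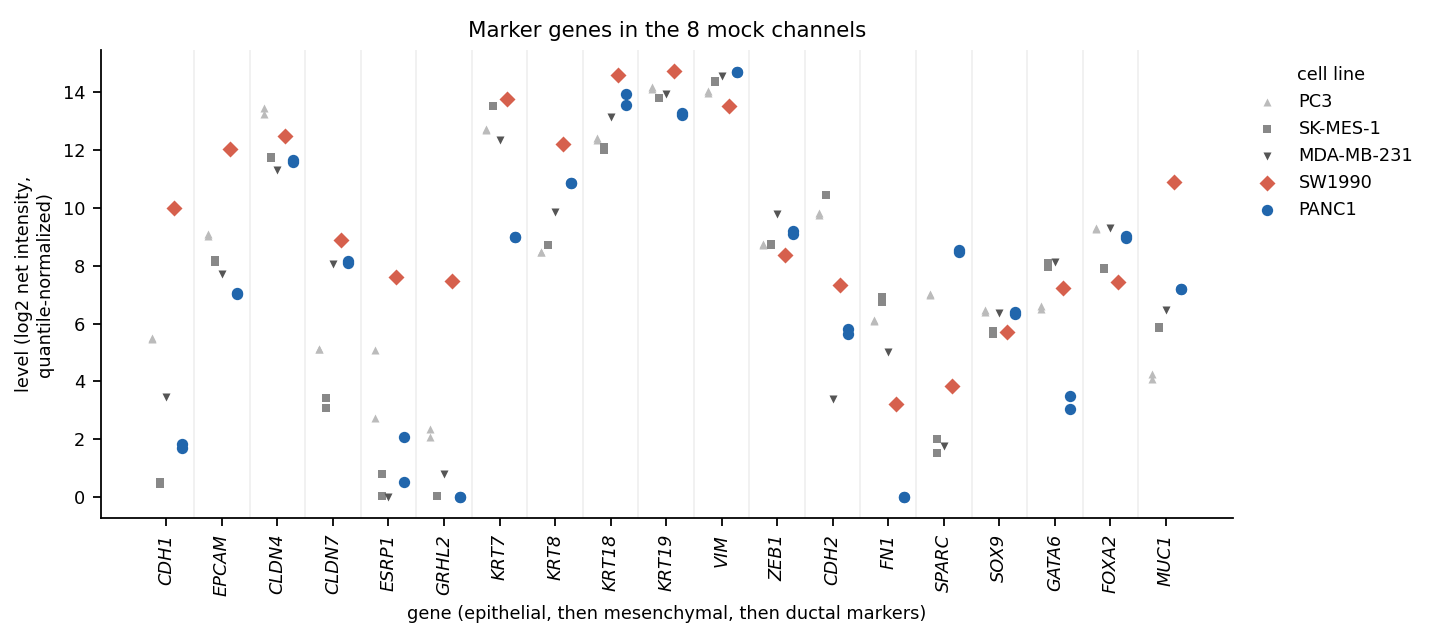
Log2 level (y axis) of 19 marker genes (x axis) in each mock channel, with 1 point per array: PANC1 as blue circles, SW1990 as red diamonds and the other lines in grey. PANC1 lies below SW1990 for CDH1, EPCAM, ESRP1, GRHL2 and KRT7 and above it for VIM and SPARC, while the 2 PANC1 points mostly coincide.

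The mesenchymal list split in both directions. Of its 60 genes, 49 were kept, with 17 higher in PANC1, 21 higher in SW1990 and 11 not called. These are 34.7% and 42.9% of the kept members, above the 17.6% and 16.5% of all genes in both directions, with a median difference of -0.46. Of 34 members bright in both lines, 8 (23.5%) were higher in PANC1 and 15 (44.1%) in SW1990, beside 14.5% and 11.3% of all such genes. The list thus held many genes that differed between the lines but no common direction.

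Of the defining markers, VIM (vimentin) was the brightest and differed little: 14.70 and 14.71 in PANC1 against 13.51 in SW1990, 2.28-fold higher in PANC1. SW1990 had the lowest VIM of the 5 lines, at a level still far above background. ZEB1, a repressor of CDH1, had 9.21 and 9.11 in PANC1 and 8.37 in SW1990, a difference of 0.79 that was not called. A second ZEB1 probe had 6.93 and 6.96 against 6.54. CDH2 (N-cadherin) went the other way, with 5.62 and 5.81 against 7.33, 3.06-fold higher in SW1990. The only FN1 (fibronectin) probe was at 0 on both PANC1 arrays and at 3.22 in SW1990, at least 2.58-fold higher there. The other lines had 5.01 to 6.90. This probe lies at chr2:216288217-216288895 (hg19), so FN1 transcripts without its bases were not measured. Its SW1990 level was close to some that failed the background test there, such as COL5A1 at 2.99. SPARC, a matrix glycoprotein, had 8.54 and 8.47 in PANC1 and 3.86 in SW1990, 25.1-fold higher in PANC1.

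The other mesenchymal transcription factors were divided between the lines. SNAI1 had 7.94 and 8.02 in PANC1 and 4.53 in SW1990, a difference of 3.45. SNAI2, its paralog, had 3.12 and 3.05 in PANC1, well above background on 1 of the arrays, and 6.81 in SW1990, a difference of -3.73. PANC1 had the highest SNAI1 and the lowest SNAI2 of the 5 lines. TWIST2 had 5.54 and 5.67 in PANC1 and 0.02 in SW1990, at least 12.9-fold higher in PANC1. TCF4, a factor that also acts on CDH1, had 5.41 and 5.69 against 0.10, at least 12.4-fold higher in PANC1. For ZEB2, TWIST1 and PRRX1, no array of the 3 gave a signal well above background.

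Among the members higher in PANC1, the 3 with the largest difference were THY1, COL5A2 and WNT5B. THY1, a surface protein of fibroblasts, had 7.60 and 7.66 in PANC1 and 0 in SW1990, at least 52.7-fold higher. COL5A2 (collagen V) had 9.66 and 9.53 against 2.27, at least 161-fold, and COL5A1 was at least 10.4-fold higher. COL1A1 (collagen I) had 7.07 and 7.61 against 4.34, 7.97-fold higher in PANC1. Collagen VI went the other way, with COL6A1 at 8.50 and 8.48 in PANC1 and 11.72 in SW1990, 9.40-fold higher in SW1990, and COL6A2 at a difference of -1.44. LOX, which crosslinks collagen, was at least 5.38-fold higher in SW1990. Matrix genes were therefore split between the lines. WNT5B, a secreted WNT ligand, had 7.95 and 7.86 against 1.28, at least 63.5-fold higher. CNN1 (calponin), a smooth muscle protein, had 6.17 and 6.02 against 0.21, at least 18.1-fold.

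Among the members higher in SW1990, the largest difference was that of CDH11. This mesenchymal cadherin had 1.46 and 1.79 in PANC1 and 10.15 in SW1990, at least 313-fold higher, so that SW1990 expressed both CDH1 and CDH11 while PANC1 had neither above background. The 3 other lines had CDH11 levels of 5.49 to 9.76. A second CDH11 probe had a smaller difference between the pancreatic lines, at -4.13. TNC (tenascin C) had 0 and 0.45 against 5.00, at least 8.81-fold. DLC1 had 3.09 and 3.22 against 7.41, 19.2-fold. The membrane metalloprotease MMP14 had 4.94 and 4.68 against 8.66, 14.4-fold. TAGLN (transgelin) had 4.31 and 4.50 against 8.20, 13.9-fold. Genes named as contractile markers were therefore split, with CNN1 and TPM2 (3.58) higher in PANC1 and TAGLN, CALD1 (-1.61) and ACTA2 (-1.76) higher in SW1990.

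**Figure D3:**
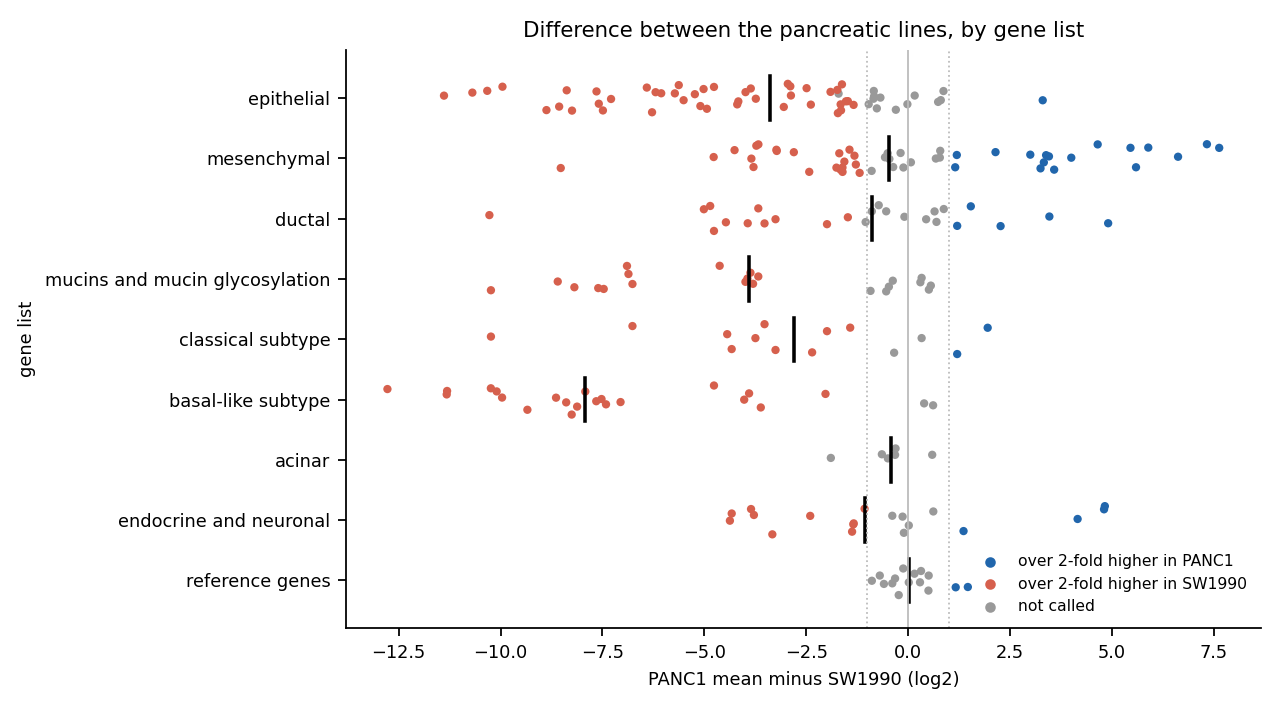
Difference between PANC1 and SW1990 (x axis, log2, PANC1 mean minus SW1990) of each kept member, by gene list (y axis), with the list median as a black bar and 2-fold as dotted lines. Epithelial, mucin and basal-like members lie mostly to the left, mesenchymal members on both sides, and reference genes around 0 with a median of 0.01.

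The ductal list was measured only in part. Of its 43 genes, 25 were kept and 18 were not. For the endoderm factor HNF4A, the channel CFTR and PDX1, a factor of pancreatic progenitors, none of the 3 arrays gave a signal well above background. Their levels there were at most 0.56. Among the defining duct markers, SOX9, KRT7 and KRT19 were measured in both lines. These 3 genes were also well above background in the 3 other lines, so that the markers do not set the pancreatic lines apart.

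Of the 25 kept ductal genes, 11 were higher in SW1990, 5 in PANC1 and 9 were not called, with a median difference of -0.89. These are 44% and 20%, beside 16.5% and 17.6% of all kept genes, so that the share higher in PANC1 was near that of all genes. Of the 17 bright in both lines, 7 were higher in SW1990 and 3 in PANC1, beside 11.3% and 14.5% of all such genes. SOX9, a factor of duct and progenitor cells, had 6.39 and 6.31 in PANC1 and 5.71 in SW1990 and was not called. The endoderm factors went apart: GATA6 had 3.503 and 3.06 in PANC1 and 7.22 in SW1990, 15.3-fold higher in SW1990, whereas GATA4 had 5.80 and 6.004 against 0.995, at least 15.8-fold higher in PANC1. PANC1 had the lowest GATA6 of the 5 lines and was the line with the highest GATA4, which was at 0.03 or below in the 3 other lines. All 3 other kept GATA4 probes had the same direction.

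The forkhead factors also differed in both directions. FOXA1 had 0.86 and 0.74 in PANC1 and 5.27 in SW1990, at least 10.7-fold higher in SW1990. FOXA2 had 8.96 and 9.01 against 7.45, 2.90-fold higher in PANC1. FOXA3, at 0.69, was not called. GATA6 and FOXA2 were thus well above background in both lines, and the GATA4 probe in PANC1 alone.

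The largest ductal difference was that of LCN2. This iron-binding lipocalin had 0.43 and 2.01 in PANC1 and 11.49 in SW1990, at least 743-fold higher. SPP1 (osteopontin) had 0.21 and 0.66 against 5.45, at least 12.1-fold. CA2 (carbonic anhydrase) had 4.19 and 4.34 against 9.12, 29.0-fold higher in SW1990. Besides GATA4 and FOXA2 on the PANC1 side, CLU (clusterin) had 9.09 and 8.98 against 5.57, 11.02-fold, and MMP7 (matrilysin) had 4.31 and 4.56 against 2.17, at least 4.81-fold. TFF3, a trefoil peptide, had 6.27 and 6.43 against 5.15, whereas TFF1 and TFF2 were higher in SW1990, at -3.25 and -3.52.

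Mucins and the enzymes that glycosylate them were higher in SW1990 wherever they were called. Of 29 genes, 22 were kept, 14 were higher in SW1990 and 0 in PANC1, beside 16.5% and 17.6% of all kept genes, with a median difference of -3.91, or -2.99 with the 11 genes dim in PANC1 at their limit. Among the 11 bright in both lines, 3 (27.3%) were higher in SW1990, beside 11.3% of all such genes, with a median difference of -0.47. MUC1, a membrane mucin, had 7.20 and 7.20 in PANC1 and 10.88 in SW1990, 12.8-fold higher in SW1990. MUC16, which carries the CA125 epitope, had 0.61 and 0.57 against 8.06, at least 73.5-fold. FUT3, the fucosyltransferase that completes the CA19-9 antigen, had 0 and 0.62 against 8.50, at least 99.8-fold. GALNT3, which starts O-glycans, had 0 and 0 against 7.60, at least 53.7-fold. CEACAM6 and CEACAM7, adhesion molecules of the carcinoembryonic family, were at least 333-fold and 115-fold higher in SW1990. AGR2, an isomerase that folds mucins, had 10.57 and 10.38 in PANC1 and 10.14 in SW1990 and was not called.

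Members of both tumour subtype lists were more often higher in SW1990 than in PANC1. Of the 25 basal-like genes, 23 were kept and 21 were higher in SW1990, with none higher in PANC1 and a median difference of -7.92 (-6.40 at the limits). Of 14 kept classical genes, 10 were higher in SW1990 and 2 in PANC1. Over all kept genes the shares were 16.5% and 17.6%. Of the kept members, 16 basal-like and 8 classical genes were dim in PANC1 and entered through SW1990 alone. Among the members bright in both lines, 5 of 7 basal-like genes were higher in SW1990 and 0 in PANC1. Of the classical genes bright in both, 2 of 5 were higher in SW1990 and 1 in PANC1, with a median difference of -0.35. Over all genes bright in both lines, 11.3% were higher in SW1990 and 14.5% in PANC1. The non-coding RNA UCA1 had 0.74 and 0.47 in PANC1 and 13.38 in SW1990, at least 2934-fold higher, and a second probe had the same direction. LY6D, a squamous surface antigen, had 1.53 and 0 against 12.08, at least 1198-fold. CST6, a cystatin, had 0 and 0.48 against 11.55, at least 828-fold. SCEL, a protein of the cornified envelope, had 0.66 and 0.44 against 10.79, at least 488-fold. TNS4, an adhesion adaptor, had 2.11 and 1.46 against 11.88, at least 967-fold. The squamous keratins KRT6A and KRT17, whose close copies can share signal, were at least 271-fold and 84.3-fold higher in SW1990. From the classical list, ST6GALNAC1, PRR15L, VSIG2 and ANXA10 were at least 30.0-fold, 13.6-fold, 10.96-fold and 3.71-fold higher in SW1990. LGALS4, a gut galectin, was at least 3.86-fold higher in PANC1.

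**Figure D4:**
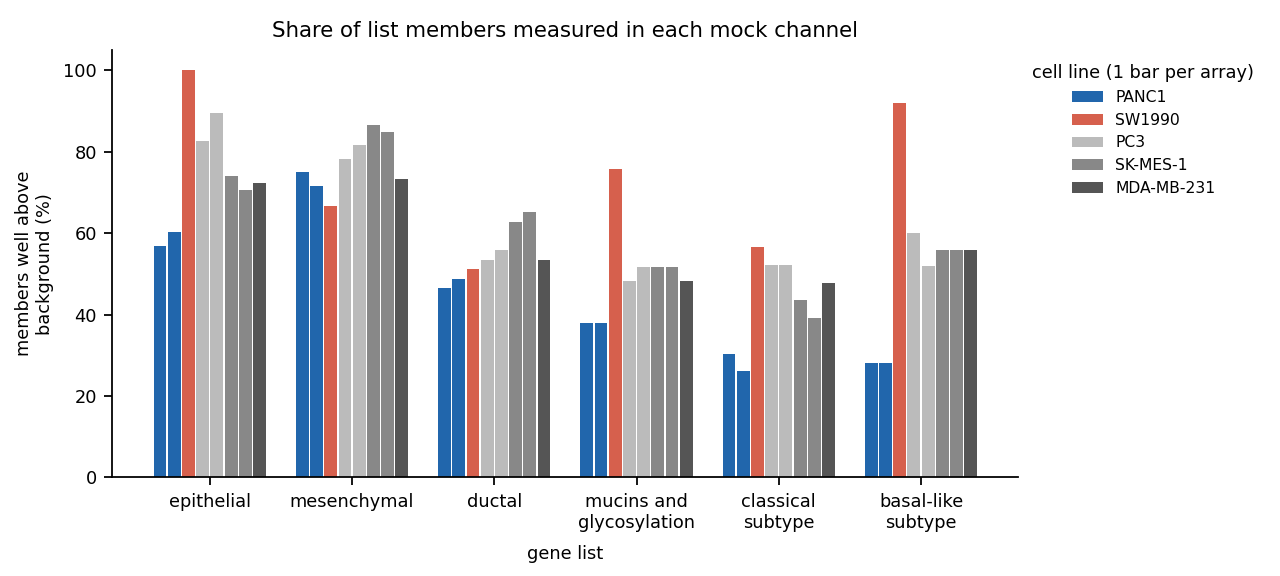
Percentage of the members of each list on the array (x axis, list) that were well above background (y axis) in each mock channel, 1 bar per array. SW1990 stands at 58 of 58 epithelial and 23 of 25 basal-like genes, and the PANC1 arrays at 33 and 35 and at 7 and 7.

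Across the 5 lines, SW1990 had the highest level for 42 of the 58 epithelial genes (72.4%) and for 18 of the 23 kept basal-like genes, beside 24.3% of all kept genes. PANC1 had the lowest level for 20 of the 58 epithelial genes (34.5%), beside 18.2% of all kept genes. SK-MES-1 had it for 19 of the 58, beside 5583 of all 20523 kept genes. For the mesenchymal list the highest level was in SK-MES-1 for 16 of 49 genes, beside 3634 of all 20523 kept genes. It was in PANC1 for 11 (22.4%) and in SW1990 for 9 (18.4%), beside 23.5% and 24.3% of all kept genes. The PANC1 share was thus near that of all genes. These counts include levels at background, where the lowest value has no order. Genes were kept through PANC1 or SW1990 and not through the other lines, so counts of the highest level lean towards the pancreatic lines. Of the 23 basal-like genes, 16 were dim in PANC1 and entered through SW1990 alone. All 58 epithelial genes were kept, and 23 of them were dim in PANC1.

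The 4 acinar markers PRSS1, CPA1, PNLIP and PTF1A were at background, whereas some markers of other cells were low but well above it. None of these 4 was well above background in either line, and their levels were at most 1.67. Of a wider list of 19 acinar genes, 4 and 4 were well above background in PANC1 and 6 in SW1990. CEL had 4.32 and 4.38 in PANC1 and 4.99 in SW1990, and CELA3A 3.37 and 3.65 against 3.82. None of the 6 kept acinar genes was called, where 17.6% of all kept genes were higher in PANC1 and 16.5% in SW1990. Of the endocrine markers, SYP (synaptophysin) had 4.06 and 4.25 in PANC1 and 0 in SW1990, and INS and CHGA were well above background on 1 PANC1 array alone. The summed levels of the 5 endocrine markers were 13.26 and 11.18 in PANC1 and 5.91 in SW1990. Blood markers, of which 2 and 1 of 4 passed in PANC1 and 1 in SW1990, summed to 8.89 and 8.49 against 8.23, with PTPRC at 3.95 and 3.89 in PANC1 and 3.38 in SW1990 and HBB at background in both lines. Endothelial markers, of which 1 and 2 of 4 passed in PANC1 and 3 in SW1990, summed to 4.86 and 4.57 against 10.53, with PECAM1 at 3.31 and VWF at 3.66 in SW1990 and KDR at background. CDH5, another endothelial marker, passed on all 3 arrays, at 4.35 and 3.98 in PANC1 and 3.51 in SW1990. Stromal markers, of which 1 and 1 of 3 passed in PANC1 and 2 in SW1990, summed to 4.45 and 4.71 against 9.22, with LUM at 4.44 in SW1990 and DCN at 0 on all 3 arrays. PDGFRB was the stromal marker that passed on all 3 arrays, at 4.45 and 4.38 in PANC1 and 4.78 in SW1990. The part of other cells in the results was not tested.

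Neuronal and endocrine genes as a wider list had 4 of 19 kept members higher in PANC1 and 10 higher in SW1990. These are 21.1% and 52.6%, beside 17.6% and 16.5% of all kept genes, so that the share higher in PANC1 was near that of all genes. UCHL1, a neuronal ubiquitin hydrolase, SYT1 (synaptotagmin) and SYP were at least 7.51-fold, 22.8-fold and 4.73-fold higher in PANC1. SCG2 (secretogranin) was 20.7-fold higher and the islet factor ISL1 at least 11.3-fold higher in SW1990. Of 15 reference genes, 13 were not called, and POLR2A and TBP were 2.76-fold and 2.24-fold higher in PANC1.

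Over all genes with a curated messenger RNA accession, each read from 1 probe, the largest differences were of genes that were bright in 1 line and at background in the other. On the PANC1 side, DLL3, a NOTCH ligand of neuroendocrine tumours, had 12.25 and 12.27 in PANC1 and 0 in SW1990, at least 1304-fold higher. PSAT1, an enzyme of serine synthesis, had 12.13 and 12.18 against 0, at least 1209-fold. CES1, a carboxylesterase, had 11.46 and 11.52 against 0.16, at least 763-fold, and ANGPTL4, a lipase inhibitor, 11.23 and 11.05 against 0.05, at least 599-fold. BASP1, BNIP3, PEBP1 and CACNA1H were at least 804-fold, 692-fold, 679-fold and 229-fold higher in PANC1. On the SW1990 side, IL1RN and IL1B, the antagonist and a ligand of the interleukin-1 receptor, had 0 on both PANC1 arrays and 11.69 and 10.54 in SW1990, at least 912-fold and 410-fold higher. GPR110, an adhesion receptor now named ADGRF1, and SPRR2A, a cornified envelope protein, were at least 683-fold and 423-fold higher in SW1990, beside LY6D, CST6 and MAL2 above. Another kept probe had a smaller difference for IL1RN (-3.10) and for GPR110 (-5.27).

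Several of these genes were not well above background in the mock channel of 1 pancreatic line and bright in every other line of the series. A gene was counted where none of its probes was well above background in 1 line, while 1 probe was well above background with a level over 5 on every array of the other lines. This held for 43 genes in SW1990 and 50 in PANC1. PEBP1, a RAF inhibitor, had 1.45 in SW1990 and 11.31 to 12.20 on the 7 other arrays, and its second probe was also at background in SW1990 alone. BNIP3, a mitophagy receptor, had 1.06 in SW1990 and 10.29 to 12.46 elsewhere. BASP1, a membrane signalling protein, had 1.005 and 11.25 to 11.59. CDH11 and MAL2 were in this group for PANC1. In the transfected channel, 24 of the 43 probes were not well above background in SW1990 and 21 of the 50 on neither PANC1 array.

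The transfected cells of the same lines gave a second set of RNA on the same 3 arrays, in which the miRNA and the line cannot be told apart. Processed alone, the Cy5 channels had 24026 kept genes, of which 13.2% were over 2-fold higher in PANC1 and 14% in SW1990. Of 7005 genes called in the mock channels, 4987 (71.2%) passed 2-fold in the same direction with the same probe in Cy5, and 1 passed it in the other direction. Of the called list members, 42 of 45 epithelial, 30 of 38 mesenchymal and 15 of 16 ductal genes did so. CDH1 had a Cy5 difference of -8.25, EPCAM -4.84, GRHL2 -7.63, CDH11 -9.58, SPARC 5.85 and GATA4 4.94. VIM, at 0.56, and KRT8, at -0.75, were under 2-fold in Cy5, so their calls held in the mock channel alone.

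**Figure D5:**
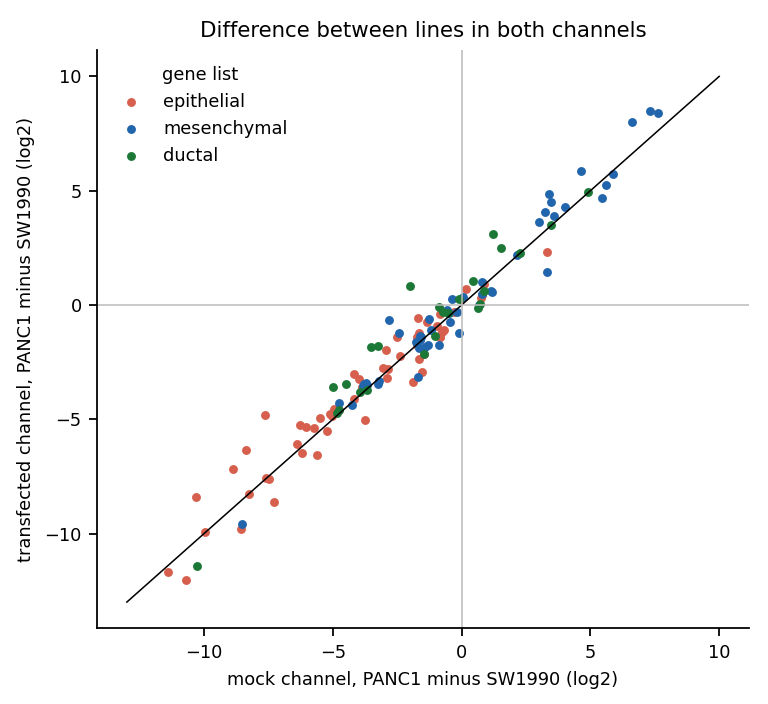
Difference between PANC1 and SW1990 (log2) in the mock channel (x axis) and, with the same probe, in the transfected channel (y axis) for the kept epithelial, mesenchymal and ductal genes. Points lie near the line of equal differences, and 42 of 45 called epithelial genes passed 2-fold the same way in both.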

How the data were processed

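The authors deposited the scanner output of 8 Agilent 2-colour arrays (Feature Extraction 11.5.1.1, probe positions on hg19), and its Cy3 and Cy5 intensity columns were used. Total RNA was extracted with Trizol, and all arrays lay on 1 slide with 1 scan time. The submitters' processed value table was not used. The median background was subtracted from the mean intensity of each spot, the result was floored at 1, and log2 values were quantile-normalized over the 8 mock channels with limma 3.58.1 in R 4.3.3. Control spots and outlier spots were left out and replicate spots averaged. A probe was kept where at least 50% of its spots were well above background on both PANC1 arrays or on SW1990, and the kept probe with the highest mean level over both lines stood for a gene. Intensity on an array has no count depth, so the number of arrays limits the precision.

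Named were 23 marker genes in any case, the 5 called members with the largest difference in each direction of each list, and the 8 such genes over all genes with an NM accession. Other genes were named after their values were seen, and some genes that the rule names are not reported here. Members and lists were chosen with earlier results of these data known. Of 323 listed genes, 318 were on the array. RefSeq accessions named 31770 probes, and 31038 of these matched the reference. The calls were checked on simulated data, with large changes in bright genes and the error of the repeated PANC1 array. That check does not cover changes in dim genes, changes near 2-fold or the spread between cultures. The 12 alternatives included limma over the 8 mock channels as separate samples (Benjamini-Hochberg). Python 3 with pandas and matplotlib was used otherwise.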

Additional observations from a re-analysis of the deposited data

How the results depend on the processing

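Of 899 values of the 87 named genes under the alternatives, 1 changed direction: without a filter on dim probes, another VWF probe gave 1.04. Of the 82 named genes that were called, 59 stayed called with normexp and 75 of 81 in the Cy5 channel, and of all 7005 called genes 2846 did so with normexp. The other alternatives kept 81 or 82 of 82, or 25 of the 25 that were bright in both lines. At the log2 threshold of 2 they were not counted. Feature Extraction's processed signal, scaling to the 75th percentile, quantile normalization over the 3 pancreatic arrays, the Cy5 channel and limma over the 8 mock channels kept all list and gene counts within 1.5 times. Leaving out 1 PANC1 array gave 3790 to 3795 genes higher in PANC1 and 3660 to 3704 higher in SW1990, and 44 to 46 epithelial genes higher in SW1990. With normexp, whose offset compresses differences of dim probes, 1408 genes were higher in PANC1 and 1449 in SW1990. Of the mesenchymal genes, 12 were then higher in PANC1 and 13 in SW1990, and 3 ductal genes were higher in PANC1. With probes well above background in both lines, 1891 genes were higher in SW1990, and the list counts were 20 epithelial and 7 ductal genes higher in SW1990 and 8 mesenchymal and 3 ductal genes higher in PANC1, since fewer genes entered. At a log2 threshold of 2, 1481 genes were higher in PANC1 and 1669 in SW1990, with 3 ductal genes higher in PANC1. At this threshold 15 mesenchymal genes were higher in PANC1 and 11 in SW1990, against 17 and 21 at 2-fold. With the mean over the kept probes, 2 epithelial genes were higher in PANC1. The limma alternative takes repeated arrays of 1 RNA as separate samples, so its 6760 of 7005 calls at an adjusted p under 0.05 measure array error alone. No paired analysis was possible because SW1990 has 1 array. Levels under the lowest signal well above background (1.82 to 1.91 on these arrays) have no order.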

Other observations

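The families below were taken by gene symbol after their values were seen, and are given as values. Members dim in PANC1 were kept through SW1990 alone, so counts that hold them lean towards SW1990. All 8 kept small proline-rich genes (SPRR) were over 2-fold higher in SW1990, where 16.5% of all kept genes were, although members of this family have near-identical sequences and can share signal. The same held for 5 of 6 kallikreins, with KLK6 at least 909-fold higher, for 6 of 7 SERPINB genes, with SERPINB5 (maspin) at least 317-fold higher, and for 7 of 12 S100 genes, with 5 not called. All 8 kept CXC chemokines were higher in SW1990, from CXCL16 (-2.02) to CXCL5 (-5.26). CXCL3, CXCL6, CXCL8 and CXCL12 were not well above background on either PANC1 array and entered through SW1990 alone. In the Cy5 channel the differences of the family ran from CXCL12 (-0.14) to CXCL5 (-5.76). Of 10 genes of the interleukin-1 family and its receptors, 6 were higher in SW1990, 3 were not called, and IL1R1 was the one higher in PANC1 (1.24). Of those higher in SW1990, IL1A, IL1B, IL1RN, IL1R2 and IL33 were not well above background on either PANC1 array. Over all kept genes, 16.5% were higher in SW1990 and 17.6% in PANC1.

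Matrix receptors differed chain by chain. Among the laminin chains, LAMA3 was at least 780-fold higher in SW1990, and LAMB3 had 4.61 and 4.53 in PANC1 and 12.72 in SW1990. The integrin chain ITGB4, a receptor chain for epithelial laminin, had 5.16 and 4.82 against 12.09, and its partner ITGA6 8.34 and 8.24 against 9.95. LAMC3 was at least 57.6-fold higher in PANC1, and the integrin chains ITGB5, ITGA5 and ITGAV were also higher there, by 2.06, 2.14 and 1.43 on the log2 scale. LIN28B, an RNA-binding protein of fetal tissue, had 8.27 and 8.30 in PANC1 and 0.16 in SW1990, at least 82.6-fold higher, and IGF2BP1 had 7.87 and 7.85 against 2.98.

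Probes of the same gene disagreed for MTAP, which lies beside CDKN2A on chromosome 9. The MTAP probe at position 21802766 (hg19) had 6.79 and 6.66 in PANC1 and 6.81 in SW1990. The probes at 21837969 and 21865830 had at most 0.48 in PANC1 and 7.51 and 8.09 in SW1990. MDA-MB-231 had at most 0.45 with all 3 probes. The 2 CDKN2A probes did not differ by 2-fold between the pancreatic lines: 1 had 6.06 and 6.18 against 6.37, and the other was at background in both. For LDHB, 1 probe had 13.57 and 13.50 in PANC1 and 0.22 in SW1990, and the other 12.04 and 12.01 against 3.19, with 11.54 or more in all other lines. The second probe stood for the gene in the counts, although the first differed more.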
